A study of Mus musculus with 12 samples.

Results

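Cytosolic ribosomal proteins are the protein components of the ribosome, the particle that translates messenger RNA. Their genes were taken from the array's platform annotation as the symbols of the Rps and Rpl series together with Rpsa, Rplp0, Rplp1 and Rplp2, without the Rps6k kinases and without pseudogenes, and where a gene had several probes, the one whose mean over the 12 arrays was greatest stood for it. This gave 62 of the 19057 genes with a probe, 25 of the small subunit and 37 of the large subunit, measured by 92 probes. The rule for the genes used symbols alone, and measured values entered it only through the mean that picked a probe. This group of genes was, however, proposed with earlier results of these data known.

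The arteries were common carotid arteries of C57Bl/6J mice, wild type (WT) or carrying a knockout (KO) of fibulin-5, a matrix protein needed for the assembly of elastic fibres. In every mouse of both genotypes the left artery (LCA) was partially ligated, which brings disturbed flow, and the right artery (RCA) was left untouched, so the RCA is a control within operated animals. Tissue was taken 1 day later. The 4 groups, WT RCA, WT LCA, KO RCA and KO LCA, had 3 arrays each, and the study's question was what fibulin-5 does in stiffening and atherosclerosis under disturbed flow. The labels give neither the age and sex of the mice nor the nature of the deletion, nor a mouse for each array. The p-values therefore describe the spread among these 12 arrays, which may be technical in part.

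A ribosome consists of a small subunit, which binds the messenger RNA and reads its codons, and a large subunit, which joins the amino acids. Each ribosomal protein is needed in about equal number, and cells adjust their supply mainly through the translation of their messenger RNAs, which carry a stretch of pyrimidines at the 5′ end and answer to the TOR kinase. Messenger RNA levels, which arrays measure, are therefore 1 layer of that supply. In the vessel wall, cells that leave rest to grow or divide make more ribosomes.

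Start windows of members are shown because these genes share sequence features around the start site that the choice by symbol did not use. RefSeq windows on GRCm38.p6, from 250 bases before to 50 after a start, matched 51 of the 62 members with 61 windows. The letters CCGGAAG, on either strand and so also as CTTCCGG, form the core bound by ETS-family factors and were found in 24 of these 61 windows (39.3%), against 8.86% of all 32851 windows. Rpl38, Rpl19 and Rps25, to which the comparisons return, carry it within 75 bases upstream, with the last base of the match 14, 33 and 67 bases before the start. A second start window of Rpl19, not printed, holds no match. Of each, 90 bases, from 75 before to 15 after the start on the plus strand, are printed with the match in capitals.
Rpl19, chr11:98026635-98026724: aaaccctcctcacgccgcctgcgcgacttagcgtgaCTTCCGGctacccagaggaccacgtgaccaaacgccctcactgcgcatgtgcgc
Rpl38, chr11:114668505-114668594: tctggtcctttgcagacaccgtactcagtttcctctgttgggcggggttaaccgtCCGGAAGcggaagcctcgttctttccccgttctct
Rps25, chr9:44407639-44407728: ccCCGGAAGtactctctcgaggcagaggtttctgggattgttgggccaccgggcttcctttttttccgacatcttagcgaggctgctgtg

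A run of at least 8 C or T letters on the sense strand within 25 bases of the start, the place of the terminal pyrimidine tract, was present in 26 of the 61 windows (42.6%) against 19.7% of all windows. Rps24, Rpl28 and Rplp2, to which the comparisons return, show such runs. A second start window of Rps24, not printed, has a longest run of 7 and does not qualify. The runs are given in capitals in 40 bases from 25 before to 15 after the start on the plus strand.
Rps24, chr14:24490653-24490692: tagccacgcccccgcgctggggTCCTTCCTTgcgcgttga
Rpl28, chr7:4792940-4792979: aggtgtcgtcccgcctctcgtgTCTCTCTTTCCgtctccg
Rplp2, chr7:141447626-141447665: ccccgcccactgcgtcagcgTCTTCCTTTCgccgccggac
TATAAA, the TATA box, and CCAAT, both searched on either strand, were present in 9.84% and 32.8% of the members' windows against 13.6% and 37.4% of all windows. These matches are letters in a window and not shown sites, windows of 1 gene can overlap, and the arrays do not measure binding or translation. The members lie on 18 chromosomes, with 10 on chromosome 7 and 7 on chromosome 9.

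Signal was low over the whole array, where the median probe intensity was 93.6 and 197 marked the 95th percentile. The 95th percentile of 1504 olfactory and vomeronasal receptor probes, genes mostly expressed outside arteries, served as a guide to background and lay between 95.7 and 126 on the 12 arrays. Arrays differed in quality: between 16% and 48.6% of genes exceeded that level, and the lowest share and the lowest median correlation with other arrays, 0.637, were those of WT LCA replicate 3. WT RCA replicate 3 was next, with 28.6% of genes and a correlation of 0.733. The single Fbln5 probe lay below the background level on all 12 arrays, so it could not check the genotype labels. Marker lists gave uneven signal. On all arrays of a group 7 to 9 of 10 endothelial markers exceeded background, but only 1 to 5 of 10 smooth muscle markers did. Tagln and Cnn1 were at background on every WT array.

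Most ribosomal protein genes gave a signal above this background in all 4 groups. Of the 62 members, 44 exceeded the background level on all 12 arrays, 17 on some and Rpl3l, the striated muscle form of Rpl3, on none. Taking the mean over 12 arrays, 51 members lay above the mean background level, and these are called the bright members in what follows. The other 11 were Rpl14, Rpl17, Rpl21, Rpl39l, Rpl3l, Rpl6, Rplp0, Rps15a, Rps20, Rps4l and Rpsa. Rplp0, the base of the stalk that recruits elongation factors, ranged from 88.7 to 107 over the 12 arrays, and Rpsa, which is also known as a laminin receptor, from 90.2 to 122. Both encode components of every ribosome, so their probes at background say nothing about the genes' expression. Intensities of different probes are not compared here, because they depend on the probe.

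**Figure D1:**
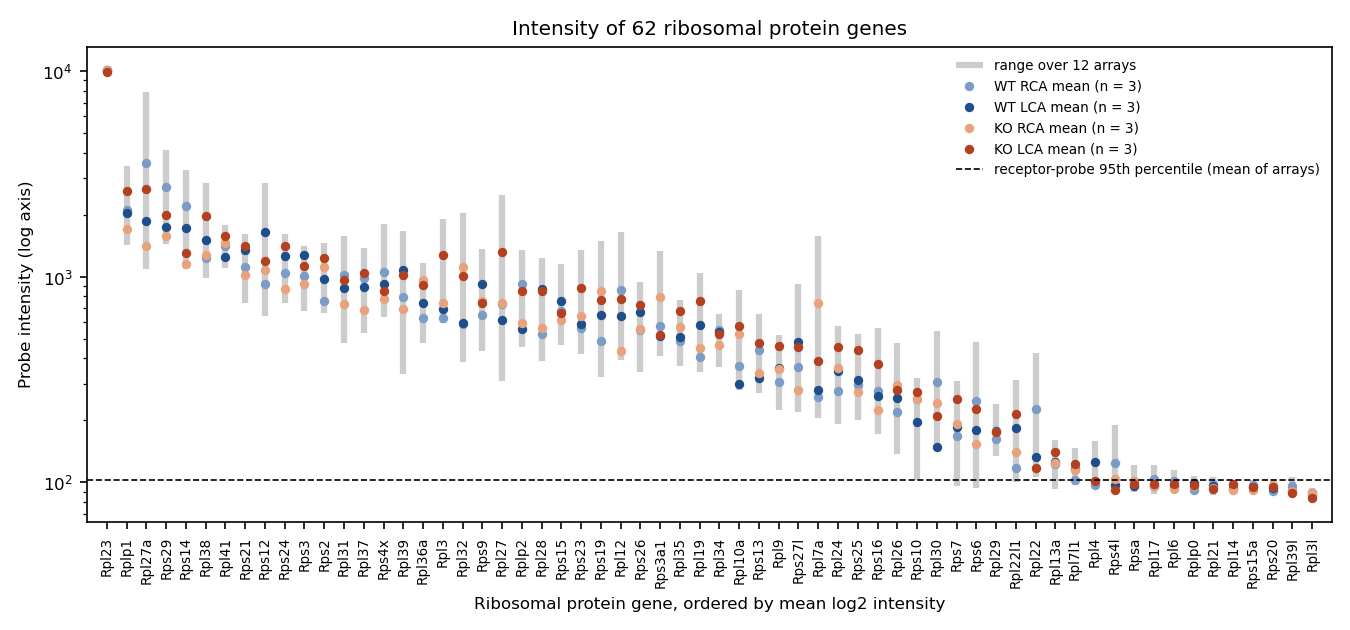
Intensity of the 62 ribosomal protein genes (log axis), ordered by mean log2 intensity, with points for the 4 group means (n = 3), grey bars for the range over 12 arrays and a dashed line for the mean background level. Most members lie above that level, and 11 of the 62 do not exceed it in their mean.

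The top of the scale limited Rpl23, and a single high array marked Rpl27a. Rpl23 held 1 of the 2 highest values of the array, 10230.4 or 9631, on all 12 arrays, so that its main probe could show no difference between groups. A second Rpl23 probe, with a mean intensity of 1747, was 0.43 higher in KO than in WT RCA on the log2 scale. In the LCA it was 0.08 higher in KO, and its ligation difference was 0.11 in WT and -0.23 in KO. These differences of the second probe alone were not tested. Rpl27a, a protein near the exit of the large subunit, reached 7876 on WT RCA replicate 3 and lay between 1090.4 and 3428 on the other 11 arrays. A single array was far above the other WT RCA arrays of Rpl27a, whose mean was 3570.0 ± 3741 (SD, n = 3).

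The bright members together were highest in KO LCA, and the groups overlapped. The median intensity over the 51 bright members was 472, 564 and 540.4 on the WT RCA arrays 1, 2 and 3, and 591, 634 and 553 on the WT LCA arrays. It was 484, 521 and 677 on the KO RCA arrays and 763, 613 and 668 on the KO LCA arrays. KO LCA replicate 1 stood highest, and KO RCA replicate 3 exceeded the 2 other KO LCA arrays. Relative to each gene's mean over 12 arrays, the mean deviation of the bright members was 0.21 ± 0.17 log2 units (SD, n = 3 arrays) in KO LCA and -0.09 ± 0.16 in KO RCA. The corresponding deviations were -0.04 ± 0.19 in WT LCA and -0.08 ± 0.05 in WT RCA. On KO LCA replicate 1, 46 of the 51 lay above their own median over the 12 arrays, against 35 and 39 on the other KO LCA arrays. The lowest counts were 9 on KO RCA replicate 1 and 13 on WT LCA replicate 3. On WT LCA replicate 3 the median deviation was -0.23 for the bright members and -0.22 for all genes above the mean background, so the shift there was not particular to the members. On KO RCA replicate 1 these medians were -0.22 and -0.04.

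**Figure D2:**
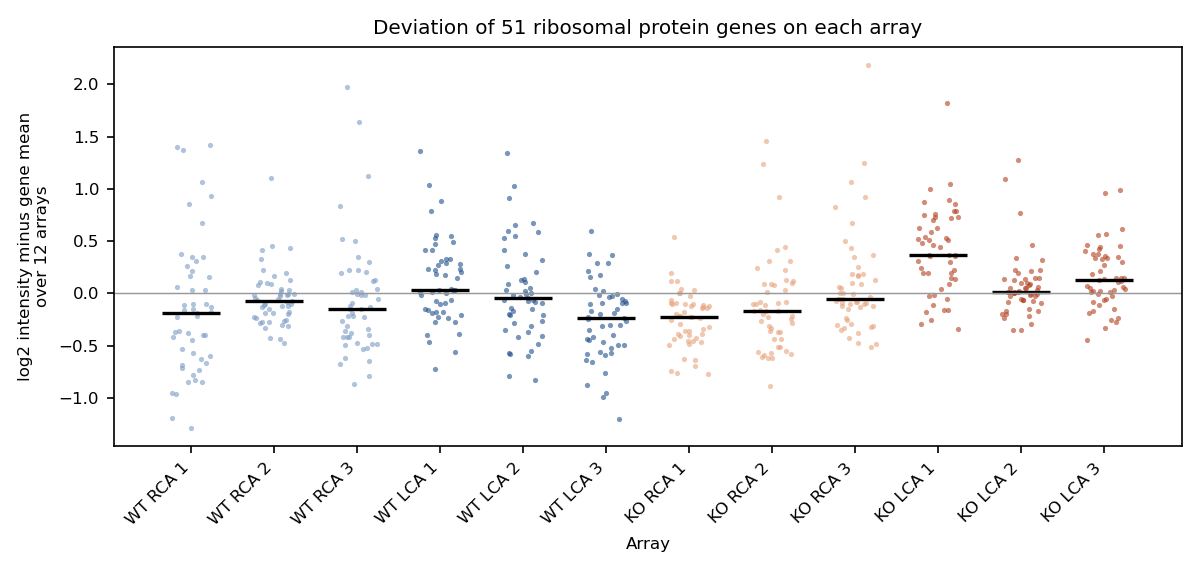
Deviation of each of the 51 bright ribosomal protein genes from its own mean over the 12 arrays (log2 units), by array, with black bars at the median. KO LCA replicate 1 has the highest median, and WT LCA replicate 3 and KO RCA replicate 1 have the lowest.

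The first comparison asked what disturbed flow did in WT arteries. No ribosomal protein gene passed an adjusted p of 0.05 in limma, and neither did any other gene (0% of 15395). Of the 61 members that could be tested, 31 were higher and 30 lower in the ligated artery, with a median log2 difference of 0.012 against -0.0017 over all genes tested. At an unadjusted p under 0.05, 2 members were higher and 1 lower, against 2.47% and 4.46% of all genes. Groups did not overlap for 2 members that were higher, Rpl3 and Rpl4, and 2 that were lower, Rpl30 and Rplp2, against 4.53% and 6.63% of all genes. These shares are near the background. Adjusted p over the members ran from 0.684 to 1.00.

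Rpl28, a large subunit protein, was 390.1, 658 and 528 in WT RCA and 1233, 634 and 745 in WT LCA. WT LCA replicate 1 was the high array, and the groups overlapped. The log2 difference was 0.70 ± 0.28 (SE; limma adjusted p = 0.684), and it was 0.42 without WT LCA replicate 1. Rpl4, which lines the exit tunnel for the growing chain, was 96.3, 102 and 92.6 in WT RCA and 107, 113 and 159.7 in WT LCA, a difference of 0.36 ± 0.14 (adjusted p = 0.684). Its highest value stood on WT LCA replicate 3, where the background level itself was 126. Without that array the difference in Rpl4 was 0.18.

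The members that were lower in WT LCA included a stalk protein. Rplp2, an acidic protein of the stalk, was 1339, 720.2 and 709 in WT RCA and 629, 528 and 519 in WT LCA. Every WT LCA value lay below every WT RCA value, and WT RCA replicate 1 stood apart from its group. The log2 difference was -0.66 ± 0.26 (limma adjusted p = 0.684), and -0.36 without WT RCA replicate 1. Rpl30 was 543, 167 and 212 in WT RCA and 161, 144 and 143 in WT LCA, a difference of -0.85 ± 0.39 (adjusted p = 0.684). It too turned on WT RCA replicate 1, without which the difference in Rpl30 was -0.34, and a second Rpl30 probe differed by 0.15.

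The second comparison made the same contrast in KO arteries. Here 49 of the 61 members (80.3%) were higher in the ligated artery, with a median log2 difference of 0.18, against 48.2% of all genes and a median of -0.0060. Among the bright members 44 of 51 were higher, with a median of 0.31, against 3349 of all 6706 genes above the mean background and a median of -0.00059. Signal level was not matched in this contrast. On the KO arrays the median intensity over these genes was 122 to 124, and over the bright members it was 484 to 763. The part of signal level in the contrast was not tested. Both subunits took part, with 21 of 25 small subunit genes higher (median 0.20) and 28 of 36 large subunit genes (median 0.18). Groups did not overlap for 14 members that were higher, against 8.43% of all genes, and for 1 that was lower, Rps4l, against 11.4%. None passed the adjusted threshold in limma (adjusted p 0.707 to 1.00), as 0% of all genes did. At an unadjusted p under 0.05, 4 members were higher and 0 lower, against 2.83% and 4.09% of all genes.

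Without KO LCA replicate 1, 45 of 61 were higher, with a median of 0.14. Leaving out 1 array at a time gave from 41 of 61 higher, without KO RCA replicate 1, to 52 of 61, without KO RCA replicate 3 or KO LCA replicate 2. Without KO RCA replicate 3 the median was 0.28 and groups did not overlap for 25 members that were higher, against 13.9% of all genes. The 4 members at an unadjusted p under 0.05 came down to 1 without KO RCA replicate 1, KO RCA replicate 2 or KO LCA replicate 1. When arrays were centred on the genes above background, 45 of 61 were higher with a median of 0.13, but only 5 had groups that did not overlap, against 3.88% of all genes. Endothelial markers summed to 3035 to 3785 in KO RCA and 2924 to 5485 in KO LCA, smooth muscle markers to 1509 to 1639.6 and 1817 to 2305, fibroblast markers to 1517 to 1845 and 1645 to 2363, and adipocyte markers to 837 to 1029 and 1178 to 1492. Smooth muscle and adipocyte sums did not overlap between these groups, but gene by gene there was no common direction. Higher in KO LCA were 4 of 9 tested smooth muscle genes (median log2 difference -0.015) and 4 of 8 adipocyte genes (0.09). Of these, 1 and 3 were at an unadjusted p under 0.05 in limma. Of the tested markers, 8 of 10 fibroblast genes were higher in KO LCA (median log2 difference 0.41, 6 at an unadjusted p under 0.05), and 6 of 6 red blood cell genes were lower (median -0.41, 2 at an unadjusted p under 0.05). Their part in the result was not tested, and fewer cells of a type and less RNA per cell cannot be told apart in these samples.

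Among small subunit genes, Rps24, needed to mature the small subunit's ribosomal RNA and mutated in Diamond-Blackfan anaemia, had the smallest p. Its intensity was 791, 744 and 1079.6 in KO RCA and 1592, 1148 and 1465 in KO LCA. All KO LCA values lay above all KO RCA values. The log2 difference was 0.69 ± 0.25 (limma unadjusted p = 0.0198, adjusted p = 0.707), and its 3 other probes, whose means were between 89.4 and 119.5, differed by 0.05, 0.16 and 0.12. Rps25, used in translation from internal entry sites, was 293, 278 and 253 in KO RCA and 528, 441 and 354 in KO LCA. Again no values overlapped, and the difference was 0.67 ± 0.28 (adjusted p = 0.717). In WT arteries the corresponding differences were 0.28 ± 0.25 for Rps24 and 0.15 ± 0.28 for Rps25. Single arrays moved both: Rps24 in WT was 0.087 without WT LCA replicate 1 and 0.51 without WT RCA replicate 2, and Rps25 was -0.085 without WT RCA replicate 1 and 0.51 without WT RCA replicate 3.

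**Figure D3:**
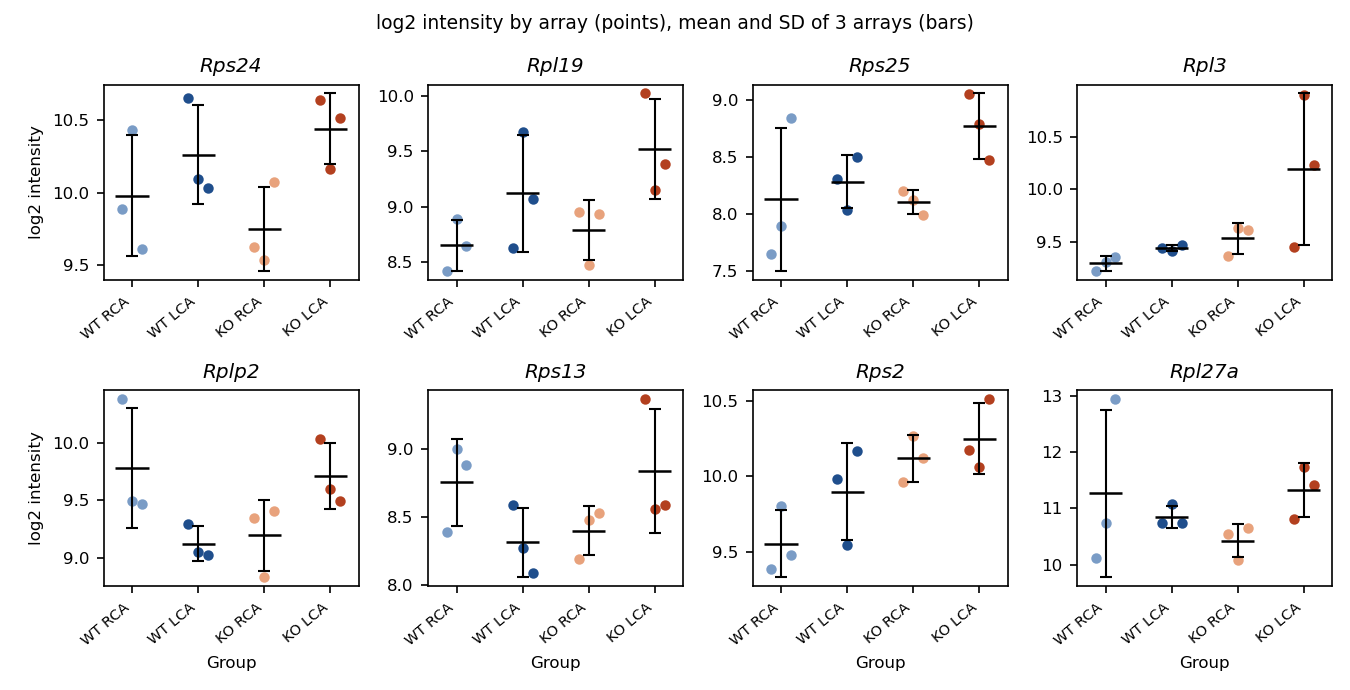
Log2 intensity of selected ribosomal protein genes by group, with a point for each array and bars for the mean and SD of 3 arrays. Rps24 and Rpl19 do not overlap between KO RCA and KO LCA, whereas Rplp2 runs in opposite directions in WT and KO.

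Rps6, the classical substrate of the S6 kinases, was 171, 152 and 140.1 in KO RCA and 339, 172 and 168 in KO LCA, where only replicate 1 stood clearly above. Rps3, at the entry of the messenger RNA channel, was 961, 818 and 993 in KO RCA and 861, 1133 and 1374 in KO LCA, with overlap. Rps27l, a paralogue of Rps27 that p53 can induce, was 264, 243 and 335 in KO RCA and 529.9, 359 and 474 in KO LCA, which did not overlap. Its log2 difference of 0.69 ± 0.45 was within 2 standard errors.

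Among large subunit genes, Rpl19 was 497, 356 and 489.6 in KO RCA and 1041, 569.7 and 668 in KO LCA. KO LCA replicate 1 was the highest and the groups did not overlap. The log2 difference was 0.73 ± 0.29 (limma adjusted p = 0.707), it was 0.48 without KO LCA replicate 1, and the WT difference was 0.47 ± 0.29. That WT difference in Rpl19 was 0.19 without WT LCA replicate 2 and 0.72 without WT LCA replicate 1. Rpl3, beside the peptidyl transferase centre, was 658, 792 and 779 in KO RCA and 700.4, 1903 and 1202 in KO LCA. Its value on KO LCA replicate 1, the array on which most members were high, lay inside the KO RCA range. The difference in Rpl3 was 0.66 ± 0.28 (adjusted p = 0.717), 0.31 without KO LCA replicate 2 and 1.03 without KO LCA replicate 1.

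Rpl38, which supports the translation of Hox messenger RNAs, was 1347, 1002 and 1480.3 in KO RCA and 1577, 1487 and 2848 in KO LCA, a log2 difference of 0.58 ± 0.28 (adjusted p = 0.745) that was 0.28 without KO LCA replicate 3. The groups did not overlap, by a narrow margin at 1480.3 and 1487. Rpl12, at the base of the stalk, was 449, 399 and 458 in KO RCA and 875, 621 and 844 in KO LCA. The groups were clearly apart, and the difference was 0.83 ± 0.48 (adjusted p = 0.77). The WT RCA values of Rpl12, 1645, 509.5 and 424, enter the error shared by all groups. Rplp1, the partner of Rplp2 in the stalk, was 1535, 2163 and 1425 in KO RCA and 3428, 1771 and 2571 in KO LCA, with overlap and a difference of 0.57 ± 0.30 that was 0.35 without KO LCA replicate 1.

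The members that were lower under ligation in KO arteries were few and scattered. Rpl7a was 253, 405 and 1577 in KO RCA and 445, 407 and 314 in KO LCA. A single KO RCA array was high, and the log2 difference of -0.50 ± 0.56 became 0.26 when KO RCA replicate 3 was left out, and -1.06 when replicate 1 of that group was left out. Rps3a1 was 554, 1334 and 509 in KO RCA and 475, 660.1 and 416 in KO LCA, a difference of -0.51 ± 0.38, again with 1 high KO RCA array, and -0.065 without KO RCA replicate 2.

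The third comparison set KO against WT in the untouched artery. The members showed no common direction: 30 of 61 were higher in KO RCA, with a median log2 difference of 0.00 against 0.0023 over all genes. No member passed in limma (adjusted p 1.00, with 0% of all genes called), and at an unadjusted p under 0.05, 2 were higher and 3 lower, against 2.48% and 1.8% of all genes. Groups did not overlap for 3 members that were higher, Rpl3, Rpl36a and Rps2, against 6.78% of all genes, and for 4 that were lower, Rpl22, Rplp2, Rps14 and Rps29, against 5.21%. These counts are close to the background share.

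Rps2, at the entry side of the small subunit, was 668, 892 and 713 in WT RCA and 996, 1233 and 1115 in KO RCA. All KO values were above all WT values, with a log2 difference of 0.56 ± 0.18 (limma unadjusted p = 0.0121, adjusted p = 1.00). A second Rps2 probe differed by 0.05. Rpl36a was 478, 847 and 560.1 in WT RCA and 897, 931 and 1062 in KO RCA, a difference of 0.66 ± 0.25 (adjusted p = 1.00). Rps14, whose loss underlies the anaemia of the human 5q deletion, was 1913, 1387 and 3279 in WT RCA and 1189, 1197 and 1083 in KO RCA. Here the KO arrays were close together and the WT arrays spread widely. The difference in Rps14 was -0.83 ± 0.30, and -0.50 without WT RCA replicate 3. Rps29 was 1784, 4112 and 2226 in WT RCA and 1558, 1645 and 1501 in KO RCA, a difference of -0.70 ± 0.29 that was -0.35 without WT RCA replicate 2.

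The fourth comparison set KO against WT in the ligated artery. Of the 61 members 44 (72.1%) were higher in KO LCA, with a median log2 difference of 0.18 against -0.01 over all genes. Among bright members 38 of 51 were higher (median 0.28), against 57.8% of all bright genes (median 0.05). Signal level was again not matched between bright members and bright genes, and its part was not tested. No member passed in limma (adjusted p 0.606 to 1.00), while 1 gene of 15395 did (0.0065%). At an unadjusted p under 0.05, 3 members were higher and 0 lower, against 4.88% and 2% of all genes. Groups did not overlap for 6 members that were higher, Rpl10a, Rpl30, Rpl32, Rpl41, Rpl9 and Rplp2, against 8.24% of all genes, and for 2 that were lower, Rpl22 and Rpl4, against 5.54%.

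The size of this shift depended on single arrays. Leaving out 1 array at a time gave 36 to 47 of 61 members higher, with medians of 0.043 to 0.27. Without WT LCA replicate 3, the array of lowest quality, 36 of 61 members were higher and the median was 0.043. Without KO LCA replicate 1 the median was 0.071, and without that array and both WT arrays numbered 3, a choice made after seeing the data, 29 of 61 were higher and the median was -0.0094. The KO LCA arrays are the same as those of the ligation comparison in KO, so the 2 comparisons are not independent. Smooth muscle markers summed to 1193 to 1515 in WT LCA and 1817 to 2305 in KO LCA. Of 10, 1 and 5 were above background on all arrays. Fibroblast markers summed to 1290.4 to 1739.7 and 1645 to 2363, with 2 and 8 of 10. Array quality enters these counts. Background was exceeded by 16% of all genes on WT LCA replicate 3 and by 33.7% to 48.6% on the KO LCA arrays. Adipocyte markers summed to 850.1 to 1007 in WT LCA and 1178 to 1492 in KO LCA, without overlap. At an unadjusted p under 0.05, 2 of 9 tested smooth muscle, 6 of 10 fibroblast and 3 of 8 adipocyte genes were higher in KO LCA. Their part in the result was not tested.

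**Figure D4:**
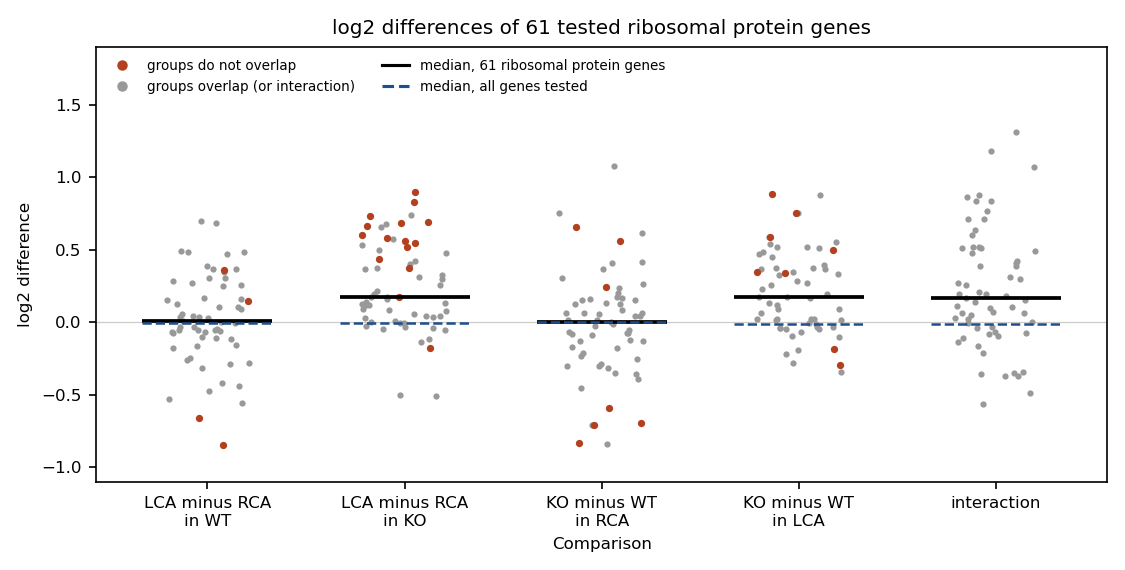
Log2 differences of the tested ribosomal protein genes in each comparison, 1 point per gene, coloured where the groups do not overlap, with solid lines at the members' median and dashed lines at the median of all genes tested. The members' median is 0.18 for ligation in KO and for KO against WT in the LCA, and close to 0 in the other pairwise comparisons.

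Rpl10a, a mobile element of the large subunit beside the exit site for transfer RNA, was 279.6, 294 and 332 in WT LCA and 758, 524 and 435 in KO LCA. The groups were well apart, with a log2 difference of 0.89 ± 0.34 (limma unadjusted p = 0.0265, adjusted p = 0.623). In the right arteries Rpl10a was 304, 345 and 449 in WT and 330.2, 387 and 863 in KO, which overlapped. Rpl3 was 692, 681 and 709 in WT LCA against the KO LCA values given above, a difference of 0.75 ± 0.28 (adjusted p = 0.606), and 0.40 without KO LCA replicate 2. The WT LCA values of Rpl3 were close together and the KO LCA values were wide apart. Rpl9 was 349, 371 and 359 in WT LCA and 522, 453 and 404 in KO LCA, a difference of 0.35 ± 0.17 (adjusted p = 0.754). Rpl41, the smallest ribosomal protein, was 1309.9, 1099 and 1309.9 in WT LCA and 1737, 1405 and 1558 in KO LCA, a difference of 0.34 ± 0.16 (adjusted p = 0.739).

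The interaction asked whether ligation acted differently in the 2 genotypes. The difference was above 0 for 43 of 61 members (70.5%), with a median of 0.16, against 47.2% of all genes and a median of -0.01. Among bright members it was above 0 for 35 of 51 (median 0.26), against 54.8% of all bright genes (median 0.043). Here too signal level was not matched, and its part was not tested. Fibroblast markers were above 0 for 9 of 10 (median 0.72, 5 at an unadjusted p under 0.05) and red blood cell markers below 0 for 5 of 6 (median -0.87), and their part in the result was not tested. No member passed in limma (adjusted p 0.905 to 1.00), with 0% of all genes called, and 2 members were higher and 0 lower at an unadjusted p under 0.05, against 2.23% and 1.32% of all genes.

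Rplp2 had the smallest p of the interaction. In WT its LCA values were all below its RCA values, as given above. In KO it was 650.2, 456 and 677 in the RCA and 1052, 778 and 722 in the LCA, with all LCA values above all RCA values. The WT means were 923 ± 360.4 (SD, n = 3) on the right and 559 ± 61.2 on the left, and the KO means 595 ± 121 on the right and 850.5 ± 177 on the left. The interaction was 1.18 ± 0.37 log2 units (limma unadjusted p = 0.0098, adjusted p = 0.905), and leaving out 1 array at a time gave 0.88 to 1.34. The second Rplp2 probe was at background on all 12 arrays and gave no measure. Rps13 followed. In WT it was 335, 510.1 and 470.4 on the right and 385, 308 and 271 on the left, with overlap. In KO it was 292, 356 and 368 on the right and 660.1, 376 and 384 on the left, without overlap, and the interaction was 0.88 ± 0.34 (adjusted p = 0.905).

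**Figure D5:**
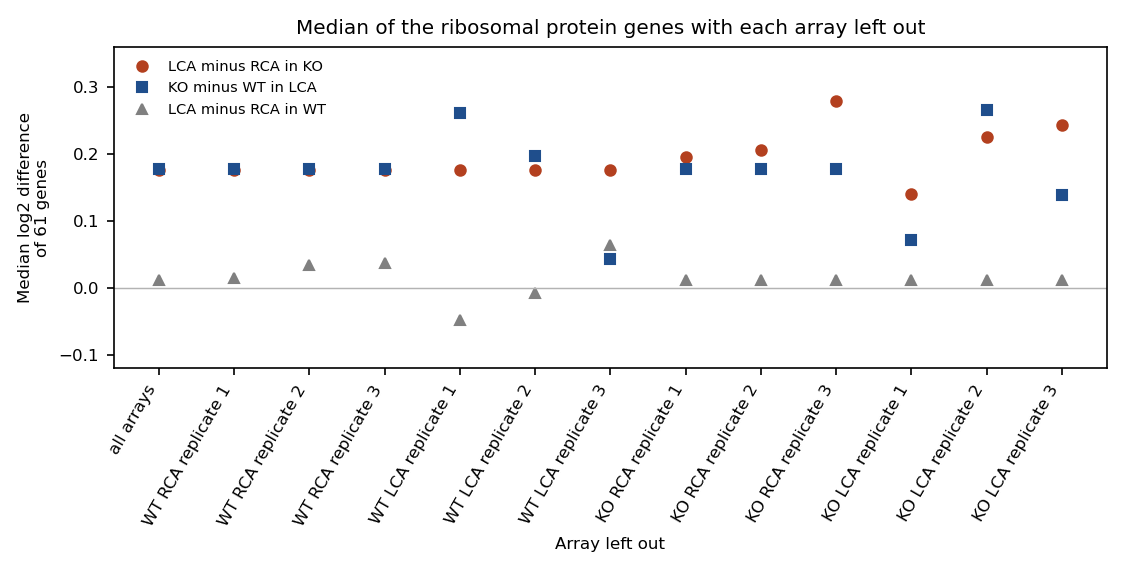
Median log2 difference over the tested ribosomal protein genes in each comparison, with all 12 arrays and with each array left out in turn. The median for ligation in KO stays between 0.14 and 0.28, and that for KO against WT in the LCA ranges from 0.043 to 0.27.

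Paralogues that replace a standard protein in some tissues were mostly near background. Rpl39l, known from testis, ranged from 87.3 to 106 and Rpl7l1, a nucleolar relative of Rpl7, from 97.5 to 147. A second Rpl7l1 probe ranged from 85.5 to 229. Its log2 differences were -0.41 for ligation in KO and 0.42 for KO against WT in the RCA. The first Rpl7l1 probe gave 0.09 and 0.16. Rpl22l1, a paralogue that Rpl22 represses, did not exceed 136 in the WT right arteries and was 316, 136 and 102 in the left ones. In KO it was 132, 145 and 147 on the right and 198, 148 and 299 on the left. The KO left arteries lay above the right by a narrow margin, with a log2 difference of 0.55 ± 0.38 (limma adjusted p = 0.797) that was 0.28 without KO LCA replicate 3. Rpl22 itself was 106, 121 and 125 in KO RCA and 108, 123 and 119.6 in KO LCA. It reached 424 on WT RCA replicate 3, against 126 and 130.5 on the other WT RCA arrays. Rps4x, the X-linked form, was 1801, 711 and 644 in WT RCA and lay between 635 and 1148 on the other 9 arrays.

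Within groups the bright members had the wider spread. The median residual SD of the bright members about their group means was 0.40 log2 units, against 0.30 over all bright genes and 0.13 over all genes tested. Signal level was not matched here, since most bright genes were far dimmer than the bright members, and its part in the spread was not tested. The most variable was Rpl27, with a residual SD of 0.92 and a value of 2498 on KO LCA replicate 1. Members did not move tightly together once group means were taken out: over the 1275 pairs of bright members the median residual correlation across the 12 arrays was 0.09, with 58.1% of pairs positive, against a median of 0.02 between members and other bright genes. Single pairs ran from -0.93, for Rpl27a and Rpl31, to 0.92, for Rpl22 and Rpl27a, and all share the same 12 arrays. No array held every extreme: KO LCA replicate 1 was the highest array for 13 of the 51 and WT RCA replicate 1 for 8, while WT RCA replicate 1 was also the lowest for 15.

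Of the 21 members with several probes, 11 had at least 2 above the background level in their mean. Among these, the correlation between a gene's 2 brightest probes across the 12 arrays was 0.75 for Rps9, 0.49 for Rps12 and 0.41 for Rps2. It was 0.22 for Rpl31, 0.21 for Rpl27a, 0.19 for Rps24 and 0.08 for Rpl38. Below these were -0.04 for Rps3, -0.08 for Rpl23, -0.16 for Rpl30 and -0.27 for Rpl7l1. The second Rpl30 probe was above background on 10 of 12 arrays. For Rps12 both probes were above background on all arrays, and in WT ligation they differed in sign, with log2 differences of 0.68 and -0.41. The first of these was 0.18 without WT LCA replicate 1 and 1.11 without WT LCA replicate 3.

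Other genes of translation were set beside the members from lists of known function. For KO against WT in the LCA, 31 of 35 initiation factor genes were higher (median log2 difference 0.24), as were 43 of 51 ribosome biogenesis genes (0.15), 8 of 10 elongation genes (0.08) and 11 of 16 TOR and S6 kinase pathway genes (0.14), against 47.2% of all genes and 57.8% of bright genes. None passed in limma, with adjusted p from 0.0707 upward, and 8 initiation and 11 biogenesis genes were higher at an unadjusted p under 0.05, against 4.88% of all genes. Without WT LCA replicate 3 the counts were 27 of 35 and 39 of 51, and with arrays centred on genes above background 26 of 35 and 34 of 51. In the untouched artery, 28 of 35 initiation and 37 of 51 biogenesis genes were higher in KO, against 51% of all genes and 52.2% of bright genes. The members' count there was 30 of 61, and the difference between these lists and the members was not tested. For ligation in KO, 22 of 35 initiation, 28 of 51 biogenesis, 7 of 10 elongation and 7 of 16 TOR pathway genes were higher. These counts stand beside 49 of 61 members and 48.2% of all genes.

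Eif4a3, a helicase of the exon junction complex listed with the initiation factors, was 119, 126 and 86.5 in WT LCA and 171, 187 and 151 in KO LCA. All KO values were above all WT values, with a log2 difference of 0.63 ± 0.13 (limma adjusted p = 0.162). Wdr74, a factor of large subunit assembly, was 102, 93.3 and 98.0 in WT LCA and 133, 129.7 and 126 in KO LCA, a difference of 0.41 ± 0.05 (adjusted p = 0.0707). Both genes lie close to the background level, which was exceeded on all WT LCA arrays by 6 of 53 biogenesis genes and on all KO LCA arrays by 34 of 53. Array quality enters these counts. Of all genes, 40.9%, 33.5% and 16% exceeded background on WT LCA arrays 1, 2 and 3. The shares were 40%, 33.7% and 48.6% on the KO LCA arrays. Eif4a1, the helicase that opens messenger RNA for the small subunit, was 540.1, 340.3 and 443 in WT LCA and 1286, 689.9 and 795 in KO LCA, a difference of 1.04 ± 0.33 (adjusted p = 0.483).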

How the data were processed

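RNA of 12 carotid arteries, extracted with a miRNeasy kit and made into biotinylated cRNA, was read on one-colour Illumina arrays, per the labels' protocols. The authors deposited 1 linear intensity per probe and array. Sorted, the intensities of all arrays are identical but for ties, as after quantile normalization. How scanner output was background-corrected and normalized is not given in the sources used here.

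Of 45281 probes, 34885 had 1 gene symbol in the platform annotation, 18 several and 10378 none; only the first were used. Probes reaching the array median on 3 or more arrays were kept, and the probe with the highest mean stood for its gene, which gave 15395 genes tested, 61 of the 62 members among them. Rpl5 and Rpl11 were not matched and are not analysed here. Intensities, floored at 1, were log2-transformed.

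A single fit in limma (3.58.1, under R 4.3.3) with eBayes covered the 4 group means, two-sided, with Benjamini-Hochberg adjustment over all 15395 genes and a threshold of 0.05. The number of arrays limits the precision. The script was tested on simulated data. Members and gene lists were chosen with earlier results of these data known. Named members were those passing, a set of stalk, signalling and paralogue genes, in each comparison the 5 higher and 5 lower with the smallest p, and those with the 5 highest and lowest means and 3 largest and smallest residual SDs; members named because groups did not overlap, or as extremes, were chosen after their values were seen. Alternatives covered the replicate block, array weights, eBayes options, filters, probe rule, groups fitted alone, normalization, a pseudocount of 16 and leaving out arrays.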

Additional observations from a re-analysis of the deposited data

Results flagged for a closer look

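Rplp2 was the member whose ligation difference ran in opposite directions in the 2 genotypes, with no overlap between RCA and LCA arrays in either: -0.66 in WT and 0.52 in KO on the log2 scale. By the same values its genotype difference was opposite in the 2 arteries, -0.59 in the RCA and 0.59 in the LCA. The interaction of 1.18 had a limma adjusted p of 0.905 and did not pass. Of all 15395 genes, 62 (0.403%) showed such opposite ligation differences and 81 (0.526%) such opposite genotype differences. Leaving out WT RCA replicate 1 gave -0.36 for ligation in WT and -0.29 for genotype in the RCA, and leaving out KO RCA replicate 2 gave 0.34 for ligation in KO. No second probe above background was at hand for Rplp2.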

How the results depend on the processing

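No member passed the adjusted threshold in limma in any comparison under any of the 26 alternatives, and the lowest adjusted p of a member was 0.201, for KO against WT in the LCA without KO LCA replicate 1. Leaving out 1 array at a time, the members' median log2 difference ran from -0.05 to 0.06 for ligation in WT, 0.14 to 0.28 for ligation in KO, -0.07 to 0.02 for KO against WT in the RCA, 0.043 to 0.27 for KO against WT in the LCA and 0.09 to 0.23 for the interaction. Without both WT arrays numbered 3 the median for KO against WT in the LCA was 0.043. Without those arrays and KO LCA replicate 1, an alternative chosen after seeing the data, it was -0.0094 and the interaction median 0.057. The cause was not tested. Under the other alternatives the medians moved by less than 1 SD of the array medians. Replicate numbers are shared between RCA and LCA, but the labels name no shared mouse. Deviations of same-numbered arrays from their group means correlated at 0.04, 0.05 and 0.07 in WT, where each array correlated best with its own number, and at -0.01, -0.0021 and 0.04 in KO, where this did not hold, so the numbers were not taken as pairs. With the replicate block 0 members passed, and 1 gene of all passed for KO against WT in the LCA, as without it. The medians, 0.18 for ligation in KO and 0.18 for KO against WT in the LCA, could not change. In this balanced design a block leaves the differences between group means as they are. For KO against WT the block was the replicate number, shared by both genotypes. For named members 281 of 5527 values changed sign and none passed. Many of these values could not change, because the array left out was outside the comparison or the alternative kept the same estimates. The total therefore understates how far single arrays matter. Without both WT arrays numbered 3, 12 of 43 named members changed sign for ligation in WT. The low signal over background limits what the dim members can show.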
